A study of Mus musculus with 4 samples.

Results

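The genes described here encode the proteins of the cytosolic ribosome, 76 of the 11201 genes that were measured in primary muscle stem cells of mice with and without estrogen receptor β. They were chosen by symbol, as every gene table row named Rpl or Rps followed by a number and at most one of the letters a, l, x or y, or named Rplp0, Rplp1, Rplp2 or Rpsa, provided that the mean of the 4 libraries reached 1 FPKM. FPKM is the number of fragments divided by the length of the transcript and by the depth of the library. The pattern took 79 of the table's 23351 rows, and 76 passed the minimum, 45 of the large and 31 of the small subunit. The last member inside the minimum was Rps27 with a mean of 2.88 FPKM, and the 3 outside it were Rpl39l with a mean of 0.133 FPKM and Rpl3l and Rpl10l, listed at 0 in every library. The cells were primary satellite cells, the stem cells of muscle, and came from extensor digitorum longus. Donors were C57BL/6 mice 6 to 8 weeks old, which the series title calls young and female. Messenger RNA of 2 Control and 2 ERβ scKO libraries was compared, where ERβ scKO is the labels' name for the knockout of the receptor, which the series text calls ERβ cKO. The Cre driver and the genotype of the Control mice are not given in the sources used here. The series text speaks of triplicates, and nothing says whether libraries came from separate animals, so p-values measure the spread between these libraries, which may be technical.

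Each ribosome joins a large subunit, which holds the catalytic centre and the exit tunnel for the new chain, to a small subunit, which reads the message. Every subunit needs its proteins in fixed proportion to its ribosomal RNA, and growing muscle precursors make many ribosomes. In mammals the messages of these genes begin with a run of pyrimidines (C or T in DNA), the 5′ terminal oligopyrimidine or TOP tract, through which mTOR signalling and the protein Larp1 control their translation. RefSeq promoter windows (build GRCm38.p6) matched 56 of the 76 genes, with 66 start sites. Between 20 bases before and 50 after the start, a run of at least 7 pyrimidines stood in 78.8% of the members' windows, against 37.7% of all windows and 33.5% of those of other genes at 1 FPKM or more. The median longest run was 10 bases in the members and 6 in all windows. A run of that length began within 5 bases of the annotated start in 19.7% of the members' windows, against 5.9% of all windows and 5.3% of those of other genes at 1 FPKM or more. The following stretches show the longest run of the window, in capitals, which is not shown to be the TOP tract, for genes to which the results return: 2 stalk proteins and other members with low ratios, then members with ratios near or above 0, and last Rps3, whose longest run is 5 bases. Each is 30 bases, 5′ to 3′ on the strand of the gene, and where a gene has several starts the one with the longest run is shown.
Rplp0 (chr5:115559466-115559495, plus strand): aggaccgcctggTTCTCCTataaaaggcac
Rplp2 (chr7:141447636-141447665, plus strand): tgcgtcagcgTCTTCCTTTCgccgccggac
Rps21 (chr2:180257399-180257428, plus strand): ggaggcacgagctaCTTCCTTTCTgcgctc
Rpl18 (chr7:45718062-45718091, plus strand): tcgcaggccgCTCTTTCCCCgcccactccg
Rps6 (chr4:86857349-86857378, minus strand): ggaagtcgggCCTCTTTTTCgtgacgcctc
Rps24 (chr14:24490698-24490727, plus strand): ttggtcggcagtgagcggTCCTCTTTTCCT
Rpl36a (chrX:134585672-134585701, plus strand): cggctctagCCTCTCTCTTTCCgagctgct
Rpl26 (chr11:68901579-68901608, plus strand): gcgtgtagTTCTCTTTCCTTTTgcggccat
Rps3 (chr7:99483674-99483703, minus strand): cgcggcgtcattgCTCCCgccctatatacc
Counted from the annotated start, these runs began at −5 in Rplp2, −1 in Rps6, 1 in Rpl18 and 11 in Rplp0. They began well inside the transcript, at 19 to 38, in Rps3, Rpl26, Rpl36a, Rps21 and Rps24, and that of Rps24 reaches the end of the window. The 48 genes with a run of at least 7 had a median log2 ratio of ERβ scKO over Control of −0.12, and the 8 with shorter runs −0.12. Searched on both strands of the 300-base window, the letters CTTTCC were found in 51.5% of the members' windows, 26.6% of all and 26.0% of those of other genes at 1 FPKM or more. For the ETS-type motif CCGGAAG these shares were 36.4%, 8.9% and 18.1%, and for AAGATGG, part of the YY1 motif, 16.7%, 6.3% and 7.1%. CTTTCC can lie inside a counted run, and a match is only a match of letters.

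Depth, estimated from the spacing of low values, was near 2500000 fragments for Control replicate 1, 2800000 for ERβ scKO replicate 1 and 2900000 for each replicate 2. Esr2, which encodes ERβ, was at 0.234 and 0.202 FPKM in Control, and its ERβ scKO values are listed as 0. All are under the 0.310 to 0.359 FPKM that 3 fragments would give, so they do not check the labels. Of 10 satellite cell and myoblast markers 9 reached 1 FPKM, and the list summed to 1098 to 1217 FPKM per library. Fibroblast markers, 11 of 14 at 1 FPKM or more, summed to 239.8 and 159 FPKM in Control against 157 and 138 in ERβ scKO, with Dpt and Lum at 0. All 12 muscle differentiation markers with a row reached 1 FPKM, and they summed to 3891 and 5709 FPKM in Control against 5468 and 6437 in ERβ scKO. Of the Schwann cell, endothelial and immune markers 3 of 7, 1 of 7 and 2 of 9 reached 1 FPKM, with Cdh19, Cldn5, C1qa and Lyz2 at 0, and the sum of each list stayed between 1.72 and 18.1 FPKM. Their part in the results below was not tested. In bulk RNA, fewer cells of a type and less RNA per cell cannot be told apart.

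Ribosomal protein genes made up 19.1% and 16.8% of all summed FPKM in Control replicates 1 and 2 and 17.1% and 16.3% in ERβ scKO replicates 1 and 2. Large subunit genes took 9.42% to 11.04% and small subunit genes 6.85% to 8.06%, with the highest share of both in Control replicate 1 and the lowest in ERβ scKO replicate 2. The ratio of the summed large to the summed small subunit FPKM was 1.37, 1.37, 1.37 and 1.38 in the same order of libraries, so both subunits stood in nearly one proportion in all 4. Most members lay close together in level: 68 of 76 had a mean of 500 to 3000 FPKM and 50 were above 1000, against a median of 12.9 FPKM over all genes tested.

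**Figure D1:**
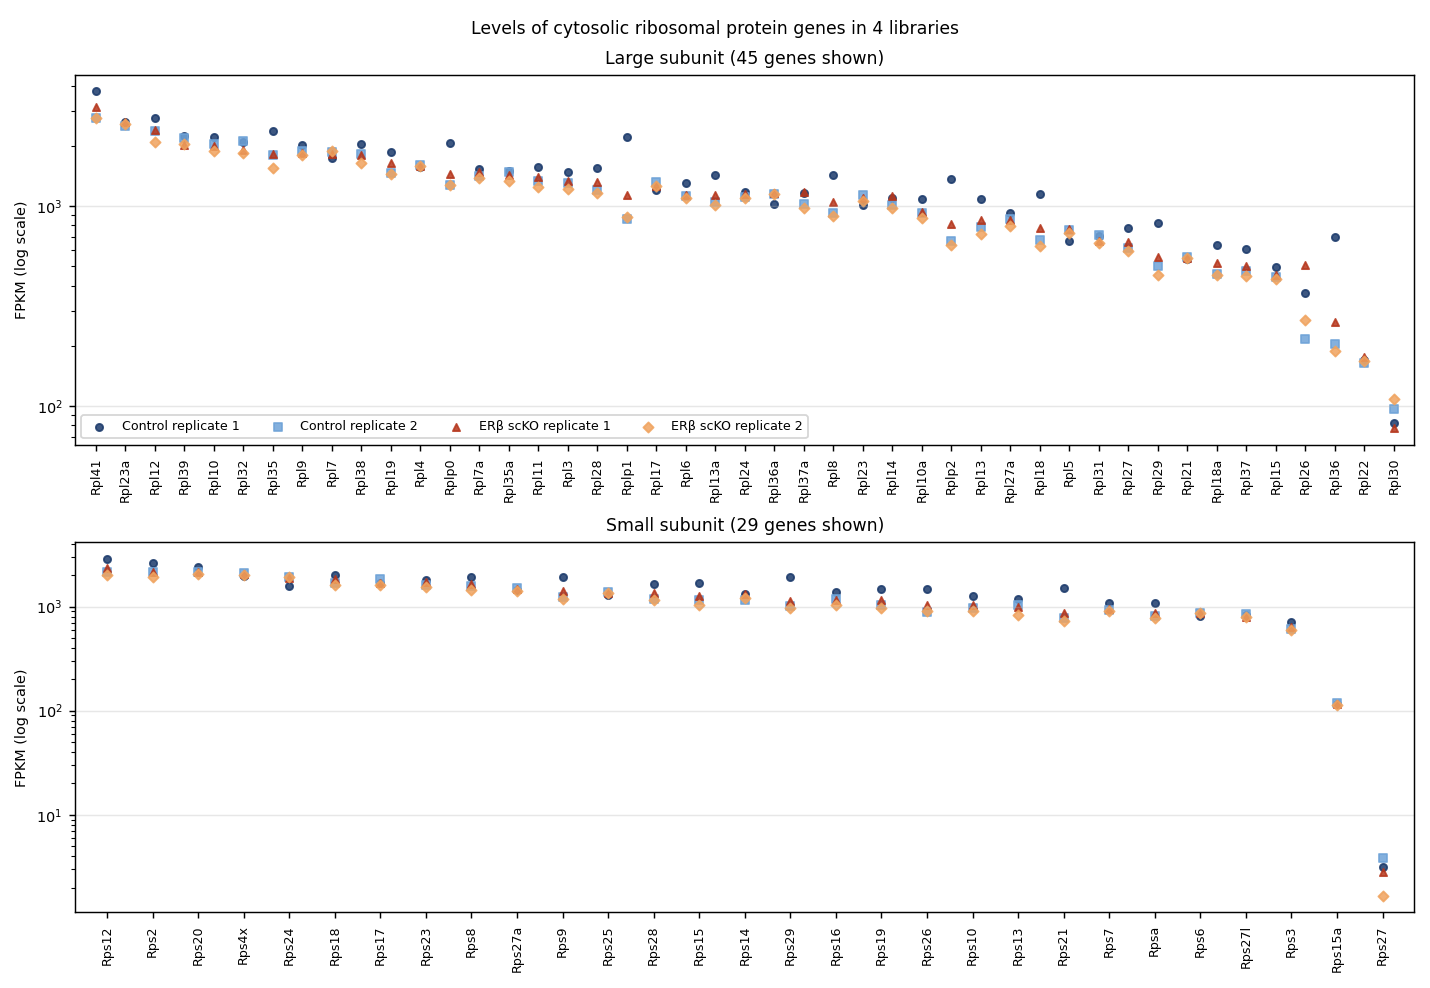
FPKM on a log axis of 45 large subunit genes (top) and 29 small subunit genes (bottom) in the 4 libraries, ordered by mean level. Points of one gene mostly overlap, Control replicate 1 (dark circles) stands above the others in genes such as Rplp1 and Rpl36, and Rps27 lies far under the other small subunit genes with a mean of 2.88 FPKM.

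In the large subunit the highest level was that of Rpl41, the smallest ribosomal protein, whose coding sequence has 75 bases. It was at 3757 and 2769 FPKM in Control against 3151 and 2774 in ERβ scKO, so Control replicate 1 was the highest and the other Control library the lowest. Rpl23a, a protein at the mouth of the exit tunnel, was at 2653 and 2510 FPKM in Control against 2632 and 2566 in ERβ scKO, with the ERβ scKO values inside the Control range. Rpl12, at the base of the stalk, followed at a mean of 2409 FPKM, Rpl39, which lines the exit tunnel, at 2130 and Rpl10, which joins the subunit late in its maturation, at 2034. At the low end stood Rpl30 with a mean of 91.2 FPKM and Rpl22 with 170. In the small subunit Rps12 was highest, at 2852 and 2158 FPKM in Control against 2361 and 1988 in ERβ scKO, an order in which the groups overlap. Rps2, Rps20, Rps4x (the X-linked form of Rps4) and Rps24 followed with means of 2194, 2187, 2022 and 1827 FPKM. Rps15a stood apart at a mean of 116 FPKM. Its annotated coding transcripts run from 250 to 5179 bases, and the sources used here do not give the length used for its FPKM.

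Several ribosomal proteins have a second gene for a closely related protein, and the pairs differed widely in balance. Rpl3l, the form of Rpl3 known from adult heart and skeletal muscle, was listed at 0 in all 4 libraries, where 3 fragments would give 0.752 to 0.873 FPKM. Rpl3 itself, a protein near the catalytic centre, was at 1476 and 1300 FPKM in Control against 1332 and 1219 in ERβ scKO, with overlapping groups. Rpl10l, known from testis, was listed at 0 in every library, and Rpl39l at 0.532 FPKM in ERβ scKO replicate 1 and at 0 in the other libraries, under the 1.33 FPKM of 3 fragments. For the muscle form and both testis forms, expression was therefore not detectable at this depth in either group. Rpl22, at 169 and 164 FPKM in Control against 177 and 168 in ERβ scKO, was lower in level than its paralog Rpl22l1, at 579.5 and 516 in Control against 509 and 417 in ERβ scKO. For Rpl22l1 the groups did not overlap, and it was not called by limma (log2 ratio −0.25, SE 0.13, adjusted p = 0.837). Rpl36a on the X chromosome had a mean of 1122 FPKM and its paralog Rpl36al on chromosome 12 a mean of 554, with log2 ratios of 0.09 and −0.03.

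In the pair Rps27 and Rps27l the paralog was the more abundant in every library. Rps27l, known in human cells as a p53 target, was at 821.5 and 839.8 FPKM in Control against 793 and 796 in ERβ scKO. Rps27 was at 3.12 and 3.88 FPKM in Control against 2.85 and 1.67 in ERβ scKO, with the Control libraries the higher and no overlap. All 50-base stretches of the Rps27 coding sequence also occur in annotated transcripts of 9 other genes, most of them pseudogenes, against 27.1% of those of Rps27l. Reads that fit several places can be split or lost in counting, and the low level of Rps27 is uncertain. Over the 76 members the mean level (log2) and the percentage of shared stretches had a Pearson's r of 0.01 and a Spearman's rho of 0.07. Whether shared sequence lowered the value of Rps27 was not tested. The limma fit over all genes did not call either gene (Rps27 log2 ratio −0.48, SE 0.26, adjusted p = 0.837).

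Control and ERβ scKO were then compared over all genes with limma on log2(FPKM + 1), a scale that understates changes of low genes. No ribosomal protein gene was called at an adjusted p of 0.05 in either subunit, where 4 of 11201 genes were (0.0357%). At an unadjusted limma p under 0.05 there were 0 of 76 members and 518 of all genes (4.62%). Adjusted p-values of members from limma ran from 0.837 upwards. In the authors' deposited table no gene of the 9426 tested had q under 0.05 (0%). By the authors' unadjusted p under 0.05, 5 members were lower in ERβ scKO (1.92% of tested genes were) and 0 were higher (1.33% of tested genes were).

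In the large subunit 34 of 45 genes had a lower mean in ERβ scKO (50.7% of all genes did), with a median log2 ratio of −0.12 and a range from −0.77 to 0.39. The median over all genes was −0.0037. The groups did not overlap in 9 of the 45: both ERβ scKO values were the lowest in 8 (18.3% of all genes), and the highest in 1, Rpl36a (18.3% of all genes). The count below was thus near the share of all genes and the count above under it. In the small subunit 25 of 31 genes had a lower mean, with a median of −0.13 and a range from −0.48 to 0.12. The ERβ scKO values were both the lowest in 7 of the 31 and both the highest in 0. Taken between libraries of one number, the median of the large subunit was −0.15 for number 1 and −0.05 for number 2, and that of the small subunit −0.20 and −0.07. Between the libraries numbered 1, 34 of 45 large and 24 of 31 small subunit genes were lower in ERβ scKO (51.3% of all genes were), and between those numbered 2, 37 and 28 were (49% of all genes). Most members were thus lower in both comparisons, by less in the libraries numbered 2. Within Control, replicate 2 differed from replicate 1 by a median of −0.18 in the large and −0.23 in the small subunit, more than the groups differed. Within ERβ scKO, replicate 2 differed from replicate 1 by −0.13 and −0.16.

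The medians of the unpaired fit moved with the library left out. Without Control replicate 1 the median log2 ratio was −0.0026 in the large and −0.0091 in the small subunit, with 24 of 45 and 18 of 31 genes lower in ERβ scKO. They came to −0.19 and −0.32 with Control replicate 2 left out instead and to −0.17 and −0.21 with ERβ scKO replicate 1 left out, and without ERβ scKO replicate 2 they were −0.07 and −0.07. Control replicate 1 was the highest of the 4 libraries in 51 of the 76 members (34.3% of all genes). ERβ scKO replicate 2 was the lowest in 54, a count for which the share over all genes was not worked out. In 12 members Control replicate 1 was over 1.3 times each other library (8.52% of all genes): Rpl8, Rpl18, Rpl29, Rpl36 and the stalk genes Rplp0, Rplp1 and Rplp2 in the large subunit, and Rps9, Rps15, Rps21, Rps26 and Rps29 in the small.

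**Figure D2:**
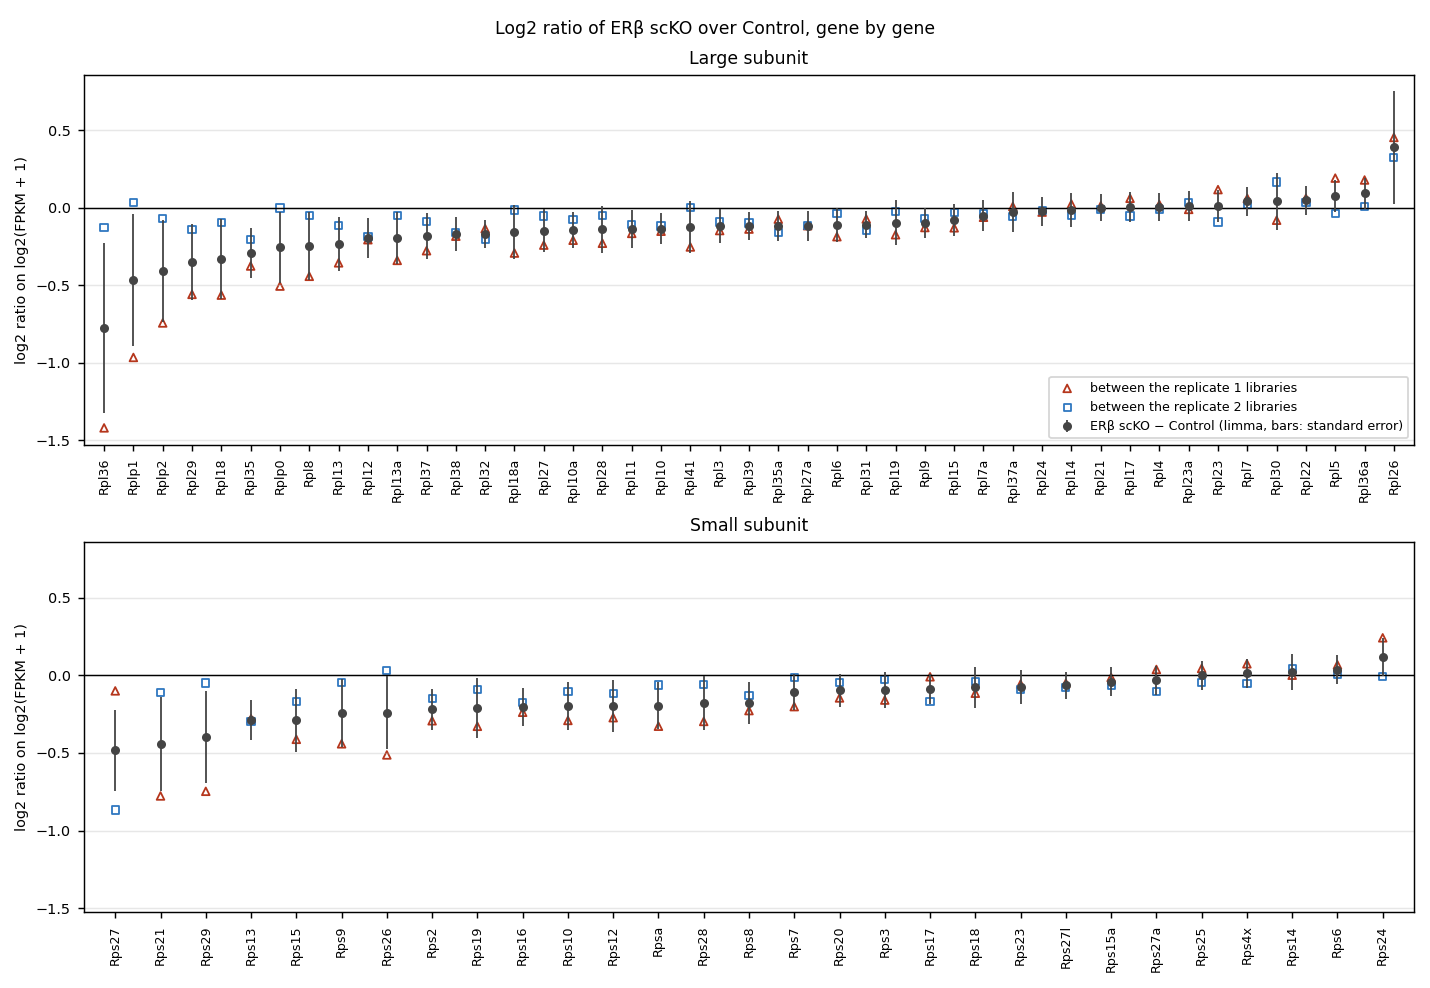
Log2 ratio of ERβ scKO over Control for the same 45 large and 29 small subunit genes on the log2(FPKM + 1) scale, with limma standard errors as bars, and the same ratio between the libraries numbered 1 (triangles) and those numbered 2 (squares). At the left of each panel the triangles lie far under the squares, as for Rpl36 with −1.42 and −0.13, while Rps27 has the opposite order.

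The stalk proteins Rplp0, Rplp1 and Rplp2 form the flexible arm of the large subunit that recruits translation factors. Rplp1 (chr9:61913283-61914510 in mm10) was at 2222 and 860 FPKM in Control against 1137 and 879 in ERβ scKO. Rplp2 (chr7:141447650-141451342) was at 1360 and 669 FPKM in Control against 812 and 636 in ERβ scKO. Rplp0 was at 2064 and 1280 FPKM in Control against 1454 and 1277 in ERβ scKO. In all 3 genes Control replicate 1 was alone at the top, and the other Control library was below ERβ scKO replicate 1. The authors' deposited table gave p = 0.0037 for Rplp1 and p = 0.0163 for Rplp2. Limma gave log2 ratios of −0.47 (SE 0.43, adjusted p = 0.846) for Rplp1, −0.41 (SE 0.33, adjusted p = 0.842) for Rplp2 and −0.25 (SE 0.23, adjusted p = 0.846) for Rplp0.

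Rpl36, a large subunit protein (chr17:56613395-56614246), had the lowest ratio of all members. It was at 702 and 205 FPKM in Control against 262 and 188 in ERβ scKO, that is 453 ± 351 FPKM (SD, n = 2) in Control. ERβ scKO replicate 1 was above Control replicate 2, so the groups overlapped. The authors' deposited table gave p = 5e-05 and q = 0.0589. Limma gave a log2 ratio of −0.77 (SE 0.55, adjusted p = 0.837). The small subunit genes of lowest ratio beside Rps27 had the same order of libraries. Rps21 (chr2:180257379-180258444) was at 1500 and 782 FPKM in Control against 875 and 725 in ERβ scKO. Rps29 (chr12:69157722-69159186) was at 1904 and 1003 FPKM in Control against 1134 and 969 in ERβ scKO. For both, only Control replicate 1 stood apart. The authors' deposited table gave p = 0.0133 for Rps21 and p = 0.0233 for Rps29, and limma gave log2 ratios of −0.44 (SE 0.30, adjusted p = 0.837) and −0.40 (SE 0.29, adjusted p = 0.837).

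The highest ratio was that of Rpl26, a large subunit protein also known to bind the p53 message (chr11:68901566-68904534). It was at 369 and 215 FPKM in Control against 505.5 and 269.8 in ERβ scKO. In each group the library numbered 1 was the higher, and the groups overlapped (log2 ratio 0.39, SE 0.36, limma adjusted p = 0.846). Rpl36a was at 1028 and 1146 FPKM in Control against 1163 and 1151 in ERβ scKO, with the ERβ scKO libraries just above Control replicate 2 (log2 ratio 0.09). Rpl5, which binds 5S ribosomal RNA together with Rpl11, was at 670.1 and 758 FPKM in Control against 765 and 737.5 in ERβ scKO (log2 ratio 0.08). Rpl11 was at 1569 and 1340 FPKM in Control against 1398 and 1244 in ERβ scKO (log2 ratio −0.14), so the partners, which when free of ribosomes also bind the p53 regulator Mdm2, had ratios of opposite sign within overlapping groups. In the small subunit Rps24 and Rps6 had the highest ratios, 0.12 and 0.04. Rps6, the substrate of the S6 kinases, was at 818 and 868.5 FPKM in Control against 858 and 872 in ERβ scKO, so the groups overlapped within a narrow range.

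Rps19, whose human counterpart is mutated in Diamond-Blackfan anaemia, was at 1461 and 1025 FPKM in Control against 1163 and 962 in ERβ scKO, with Control replicate 1 alone at the top (log2 ratio −0.21). Rps14 was at 1332 and 1163 FPKM in Control against 1333 and 1200 in ERβ scKO, with both libraries numbered 1 above both numbered 2 (log2 ratio 0.02). Rpsa, also known as a laminin receptor, had a log2 ratio of −0.20 and Rps4x one of 0.01. The abundant Rpl10 and Rpl39 had log2 ratios of −0.14 and −0.12. They were among the 15 members in which ERβ scKO was lower without overlap, 19.7% of members and near the 18.3% of all genes. Rpl10 was at 2213 and 2046 FPKM in Control against 1992 and 1885 in ERβ scKO. Rps13, which was chosen after its values were seen, had log2 ratios of −0.28 between the libraries numbered 1 and −0.30 between those numbered 2, at 1189 and 1027 FPKM in Control against 979.6 and 834 in ERβ scKO. Its limma log2 ratio was −0.29 (SE 0.13, adjusted p = 0.837).

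The spread among members followed the base composition of their coding sequences, which ranges from 43.5% to 61.6% GC. The deviation of Control replicate 1 from the gene mean had a Pearson's r of 0.78 and a Spearman's rho of 0.85 with coding GC content over the 76 genes. For Control replicate 2 they were −0.63 and −0.78, for ERβ scKO replicate 1 −0.09 and −0.16, and for ERβ scKO replicate 2 −0.72 and −0.77. These describe genes measured in the same 4 libraries, whose deviations sum to 0. In the 26 genes of lowest GC content (up to 50.7%) the median log2 ratio was 0.0018 and 11 had a lower mean in ERβ scKO. In the 25 of middle content it was −0.13, with 24 lower, and in the 25 of highest content (from 54.7%) it was −0.23, with 24 lower. Between the replicate 2 libraries the 3 medians were −0.05, −0.09 and −0.06, with no such order. A relation to GC content ran through all genes too, with a Spearman's rho of 0.53, −0.33, −0.15 and −0.31 with the GC content of the transcript over 11109 genes, in the same order of libraries. With each library's trend on the GC content of the transcript removed, the medians were −0.11 and −0.12, with 39 of 45 and 26 of 31 genes lower. With the trend removed and Control replicate 1 left out they were −0.0050 and −0.02, with 26 and 20 lower. How much of the members' relation to coding GC content this removed was not worked out. The log2 ratio itself had a Pearson's r of −0.65 with coding GC content and of 0.20 with coding length.

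**Figure D3:**
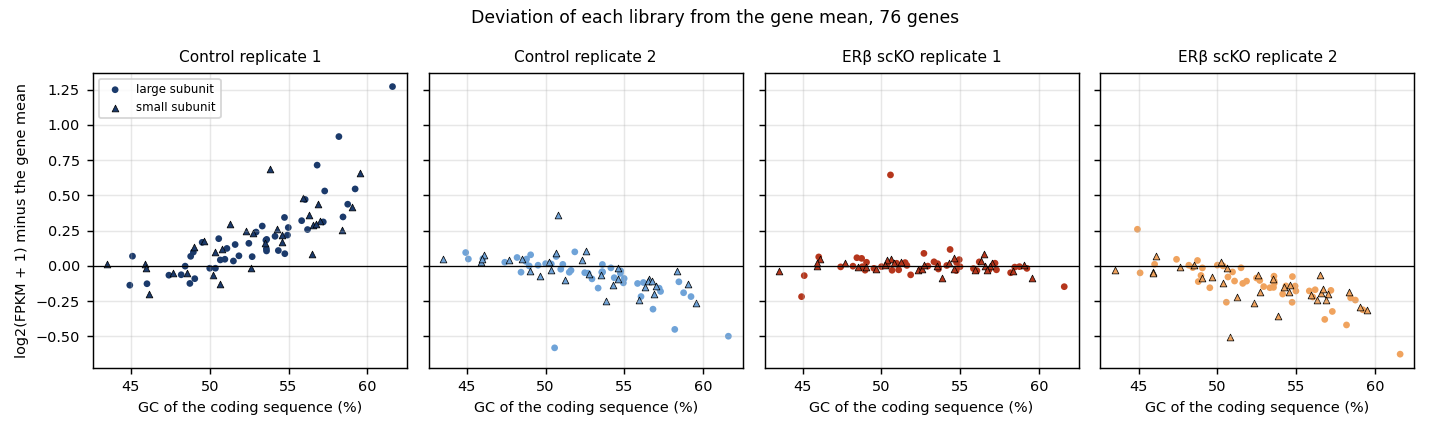
Deviation of each library from the gene mean on the log2(FPKM + 1) scale against the GC content of the coding sequence, one panel per library, for 45 large (circles) and 31 small (triangles) subunit genes. The points of Control replicate 1 climb with GC content (Spearman's rho 0.85), and those of Control replicate 2 and ERβ scKO replicate 2 descend (−0.78 and −0.77). Most points of ERβ scKO replicate 1 lie near 0, with that of Rpl26 well above.

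Sequence shared with pseudogenes limits how well single members can be counted. Of the members, 75 share at least one 50-base stretch of coding sequence with an annotated transcript of another gene, and 30 share all of them. Rpl4, Rpl8 and Rps3, chosen by that share, had under 25% shared. Rpl8 was at 1433 and 927 FPKM in Control against 1054 and 894 in ERβ scKO. Rps3 was at 710 and 606 FPKM in Control against 636 and 594 in ERβ scKO, and Rpl4 at 1567 and 1600 against 1588 and 1585. Control replicate 1 was the highest library in Rpl8 and Rps3, where little sequence is shared, but not in Rpl4.

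The symbol pattern leaves out some genes of ribosomal proteins. Control replicate 1 was the highest library in 5 of the 7 that were measured (34.3% of all genes). Fau, which encodes Rps30 fused to a ubiquitin-like protein, was at 792 and 521 FPKM in Control against 549 and 522 in ERβ scKO. Gnb2l1 (Rack1), a signalling scaffold on the small subunit, was at 1194 and 989 FPKM in Control against 1051 and 1003 in ERβ scKO. In both of these only Control replicate 1 stood apart. Rps3a1 was at 1707 and 1795 FPKM in Control against 1741 and 1742 in ERβ scKO, with the ERβ scKO values inside the Control range. All 7 such genes measured had a lower mean in ERβ scKO (50.7% of all genes did), with a median log2 ratio of −0.10. This median was −0.02 without Control replicate 1 and −0.22 without Control replicate 2. Limma called none of the 7, with 0 at an unadjusted p under 0.05 (4.62% of all genes).

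Other gene groups of ribosome production were set beside them, and limma called no gene in any. Proteins of the mitochondrial ribosome, which is built from its own set of genes, had a median log2 ratio of −0.12, with 56 of 77 lower in ERβ scKO. They were lower without overlap in 25 (32.5%) and higher without overlap in 6, against 18.3% of all genes in each direction. Their median was −0.03 without Control replicate 1. Its most abundant members, Mrps6 and Mrpl33, had log2 ratios of 0.06 and 0.01. Ribosome biogenesis factors, which process and assemble the subunits in the nucleolus, had a median of −0.07, with 49 of 72 lower, and −0.03 without Control replicate 1. Of these factors 19 were lower without overlap (26.4%) and 6 higher. Npm1 and Ncl, the abundant nucleolar proteins of this list, had ratios of 0.09 and 0.08. RNA polymerase I, which transcribes the large ribosomal RNA precursor, and its factors had a median of −0.10, with 10 of 15 lower. Without overlap 7 were lower (46.7%, against 18.3% of all genes) and 2 higher. Their median was −0.13 without Control replicate 1. The most abundant of these, Polr1d and Taf1d, had ratios of 0.11 and 0.14. Unadjusted limma p-values were under 0.05 for 4 of 77 mitochondrial ribosome genes, 3 of 72 biogenesis factors and 0 of 15 polymerase I genes, near or under the 4.62% of all genes.

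Other genes whose messages also begin with a TOP tract varied in the order of the libraries. Most of this list are translation factors, but it also holds genes of other roles. Among those is Npm1, which is counted with the ribosome biogenesis factors too. Over the list the median log2 ratio was −0.01, with 12 of 23 lower in ERβ scKO, and 0.0021 without ERβ scKO replicate 2. In these genes the median deviation of Control replicate 1 from the gene mean was −0.02, against 0.15 in the large and 0.18 in the small subunit. Control replicate 1 was still the highest library in 10 of the 23 (34.3% of all genes). Eef1a1, the elongation factor that brings aminoacyl-tRNA to the ribosome, was at 6428 and 7930 FPKM in Control against 7921 and 8162 in ERβ scKO, so here Control replicate 1 was the lowest. Tpt1, a growth-related protein, was at 4108 and 4401 FPKM in Control against 4352 and 4521 in ERβ scKO. Eef2, the elongation factor that moves the ribosome along the message, chosen after its values were seen, was at 1039 and 688 FPKM in Control against 741 and 657 in ERβ scKO, with Control replicate 1 alone at the top as in the stalk genes. The difference between this list and the ribosomal protein genes was not tested. Regulators of ribosomal protein synthesis, among them mTOR complex and Larp genes, had a median of 0.02, with 9 of 20 lower, and this median was below 0 with either Control library left out (−0.03 and −0.12) and with ERβ scKO replicate 2 left out (−0.05). In this list Eif4ebp1, a translation repressor that mTOR inactivates, was at 113 and 82.4 FPKM in Control against 87.9 and 73.5 in ERβ scKO (log2 ratio −0.26), and Rheb, the activator of mTOR, had a ratio of 0.04. Limma called none of either list, and 1 gene of each had an unadjusted p under 0.05 (4.62% of all genes did).

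**Figure D4:**
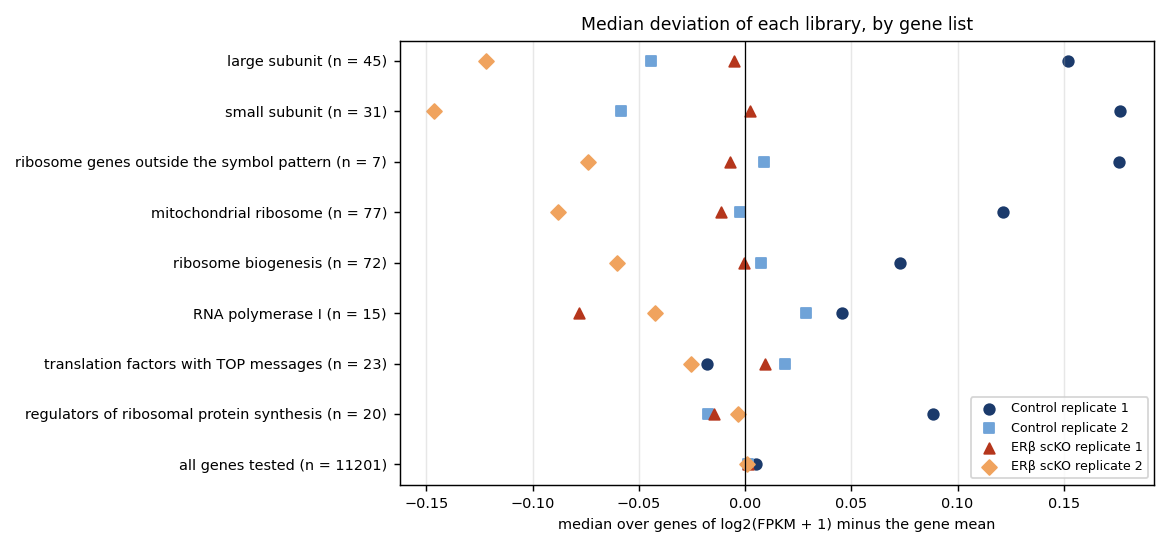
Median over the genes of each list of the deviation of each library from the gene mean, on the log2(FPKM + 1) scale. Control replicate 1 (dark circles) lies at 0.15 and 0.18 for the large and small subunit and at −0.02 for the list of translation factors. That list also holds other genes with TOP messages. All 4 libraries lie near 0 over all genes tested.

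The ribosomal RNA precursor itself was one of the 4 genes that limma called, with the small nucleolar RNAs Snord35a, Snora23 and Snora31. Rn45s was at 213 and 258 FPKM in Control against 63.9 and 68.7 in ERβ scKO, with no overlap between the groups (log2 ratio −1.81, SE 0.13, adjusted p = 0.0300). The call held in 8 of the 12 alternative fits that kept this row, with adjusted p-values from 0.0125 to 0.197, and was lost with no filter on low values, with either ERβ scKO library left out and with no trend in the variance. These libraries were made from polyadenylated RNA, so the row holds what passed that selection and is no measure of ribosomal RNA in the cells. Malat1, a nuclear RNA whose level can vary with RNA quality, was at 63.5 and 115 FPKM in Control against 141 and 166 in ERβ scKO. Neat1, another nuclear RNA, was at 79.8 and 90.8 FPKM in Control against 129 and 143 in ERβ scKO. The part of RNA quality in any result here was not tested.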

How the data were processed

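FPKM per gene and library were deposited by the authors. The submitters' processing notes name TopHat, Cufflinks and mm10, without versions or an annotation. Libraries were stranded and poly(A)-selected, per the labels' protocols. The deposited table also holds the authors' log2 fold changes, test score, p-values and q-values from their own test. FPKM are not counts, so Control and ERβ scKO were compared by limma 3.58.1 (R 4.3.3), fitted to log2(FPKM + 1) with a variance trend and no block. The fit took the 11201 genes whose mean reached 1 FPKM, at a Benjamini-Hochberg adjusted p of 0.05. The fit was tested on simulated data with independent noise and changes larger than any member's ratio, which does not check it for changes of the members' size. Lists are described by counts and medians, with no set test. Counts and medians cover all members, and a few genes are not reported here by name.

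Members, lists and the rule for named genes were chosen with earlier results of these data known. The rule takes, in each subunit, the 5 highest mean levels and the 3 lowest and 3 highest ratios, members with the authors' p under 0.05, fixed genes of known role or with paralogs, and the 2 most abundant genes of each other list. Coding sequences, transcript GC content and 50-base stretches were read from GENCODE M21, of the same build, where 98.0% of the symbols were found, and promoters from RefSeq. Removal of the GC trend subtracted a loess curve on transcript GC content (span 0.5) from each library. Fragment numbers were estimated from FPKM steps, and limits of 3 fragments cover counting error only. The alternatives were 2 pseudocounts, 2 filters, 2 scalings, replicate number as a block, each library left out, GC trend removal, short transcripts left out and no variance trend.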

Additional observations from a re-analysis of the deposited data

How the results depend on the processing

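Libraries and alternatives limit these results as follows. Over all genes limma called 4 genes, 2 with no filter on low values, 0 with the GC trend removed, 0 with genes left out whose longest transcript, or RefSeq transcript (an alternative added after seeing the data), is under 600 bases, 7 to 11 with 1 library left out, and 0 to 33 with 1 left out and the GC trend removed (added likewise); the 4 genes, Rn45s and 3 small nucleolar RNAs, are themselves outside the fits on GC content or transcript length, so the 0 there says nothing of the correction. No ribosomal protein gene was called in any alternative but one, where 1 was: Rpl36, with the GC trend removed and Control replicate 2 left out, a fit added after seeing the data that leaves Control replicate 1 as the lone Control library and assumes that it varies like the others (limma adjusted p = 0.0323, against a lowest member's adjusted p of 0.167 with Control replicate 2 left out and no GC correction). With 1 library left out the median log2 ratio ran from −0.19 to −0.0026 in the large and from −0.32 to −0.0091 in the small subunit, and genes lower in ERβ scKO from 24 to 37 and from 18 to 28; with the GC trend removed as well the genes lower ran from 26 to 42 and from 20 to 26. With short RefSeq transcripts left out 15 of 20 small subunit genes were lower. Scaling, centring, pseudocounts, filters and the variance model moved neither median by more than the spread between libraries. Among these alternatives the sign of a member differed only under median centring, in 4 of 76. The sign of the main fit was kept in 35 of 76 members without Control replicate 1, and in 66 to 73 with another library left out. With the GC trend removed it was kept in 68 of 76. The labels number the libraries 1 and 2 in each group and give same-numbered libraries a common code, but do not say that either pairs them. With the replicate block the medians were −0.12 and −0.13, with 34 and 25 genes lower, 6 genes called over all and 0 members; same-numbered libraries deviated together (r = 0.21 over all genes and 0.66 over the members), which with 1 independent value is a hint from the data only. With 2 libraries per group no permutation test can reach 0.05.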

Other observations

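Many ribosomal protein genes carry small nucleolar RNAs in their introns, RNAs that guide the chemical modification of ribosomal RNA. GENCODE places 56 of them in 29 members, 31 of these had a row of their own, and 26 were listed at 0 in all 4 libraries. Snord35a, in an intron of Rpl13a, was listed at 0 in both Control libraries and at 1740 and 1739 FPKM in the ERβ scKO libraries, and was one of the 4 genes that limma called. Another of the same host, Snord32a, was at 3688 FPKM in Control replicate 2 and listed at 0 elsewhere. Snord16a of Rpl4 was at 2398 FPKM in Control replicate 2 alone, and Snora65 of Rpl12 and Snora7a of Rpl32 at 123 and 62.8 FPKM in ERβ scKO replicate 1 alone. These RNAs are 65 to 149 bases long, and the effective length behind such a value is not given in the sources used here. FPKM divides by length, so at these lengths a high value can rest on very few fragments. The limit in fragments given for Esr2 and Rpl3l was not worked out for these RNAs. Whether the values of Snord35a exceed counting error was therefore not tested, and its call is not shown to be a change in expression. Among the hosts of these RNAs, Rpl13a was at 1433 and 1052 FPKM in Control against 1132 and 1014 in ERβ scKO (log2 ratio −0.20). Rpl4 differed by 0.0033 on the log2 scale. Whether hosts and these RNAs vary together was not tested.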
